A study of Mus musculus with 6 samples.

Results

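The TRBV12 family comprised the TCRβ chains of 2 V genes, TRBV12-1 and TRBV12-2, among the 21 TRBV genes used in this experiment. Its members were chosen by a measured value, the V gene given to each productive TRB contig, a contig being a TCR transcript assembled from the reads of 1 cell. A productive TRB contig with either gene was found in 63 of the 1057 cells that had any productive TRB. The cells were P2+CD4+ T cells, sorted with an I-Ab tetramer that presents the P2 peptide of the retinal autoantigen IRBP, from the lymph nodes of AireGW/+ Lyn-/- mice at 9 wk of age. Uveitis dataset 1 and uveitis dataset 2 came from mice with uveitis, pooled from 7 and 8 mice with the order not given here, and the third library came from 16 pooled mice without uveitis. Both mutations, the hypomorphic Aire allele that weakens thymic tolerance and the loss of Lyn, were carried by every mouse of the 3 libraries, so that no library came from mice of another genotype. Each pool was 1 sample, and clones from different mice of a pool could not be told apart. No test between libraries was made, since the cells of a pool are not replicates of the condition.

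A TCRβ chain is made when 1 V gene is joined to a D and a J segment, with bases trimmed from the ends and random bases added between them. The joined region encodes CDR3β, the loop that lies over the peptide, whereas the CDR1 and CDR2 loops are encoded by the V gene itself. A productive join on 1 TRB allele normally stops rearrangement on the other, a rule known as allelic exclusion. TRBV12 chains belong to the Vβ5 group of the older mouse nomenclature.

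TRBV12-1 lies on chromosome 6 of GRCm38 from 41113550 to 41114067, and TRBV12-2 from 41118851 to 41119364, both on the plus strand and each with 2 exons, a leader exon and a V exon. The genes are separated by 4783 bases, and another member of the group, TRBV12-3, is annotated as a pseudogene and was not found in a productive contig. Over the 372 coding bases of the GENCODE transcripts, TRBV12-1 and TRBV12-2 differed at 44 positions and were 88.2% identical. The last 150 bases, all in the V exon, are shown because they hold the start of CDR3β, and capitals mark the 14 bases that differ between the genes. They lie at chr6:41113918-41114067 for TRBV12-1 and at chr6:41119215-41119364 for TRBV12-2.
TRBV12-1: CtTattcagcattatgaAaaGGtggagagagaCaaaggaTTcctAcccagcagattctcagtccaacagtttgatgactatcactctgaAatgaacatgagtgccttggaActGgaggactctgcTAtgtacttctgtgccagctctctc
TRBV12-2: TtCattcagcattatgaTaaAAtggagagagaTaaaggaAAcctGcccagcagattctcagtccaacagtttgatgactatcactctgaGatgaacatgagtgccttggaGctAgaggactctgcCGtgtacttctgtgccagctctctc
Both genes end in the same 15 bases from the conserved cysteine codon onward, tgtgccagctctctc, so that the germline part of CDR3β did not tell them apart and the V gene was known only from the bases before it.

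The 63 cells carried 19 different TRBV12 chains, 9 with TRBV12-1 and 10 with TRBV12-2. The CDR3β sequences below belong to the chains found in more than 1 cell and to the shortest and longest CDR3β of each gene. Lower case marks the bases that match the germline V gene from the 5′ end or the germline J segment from the 3′ end, and capitals mark the bases between, which hold what is left of the D segment and the added bases.
TRBV12-2 TRBJ2-3, uveitis dataset 2, 40 cells, longest of TRBV12-2: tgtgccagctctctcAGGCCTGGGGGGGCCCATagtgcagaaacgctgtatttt
TRBV12-1 TRBJ2-4, without uveitis, 5 cells, longest of TRBV12-1: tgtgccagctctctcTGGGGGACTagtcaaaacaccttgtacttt
TRBV12-1 TRBJ2-4, without uveitis, 1 cell, equally long: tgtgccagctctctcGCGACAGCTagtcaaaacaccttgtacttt
TRBV12-1 TRBJ1-1, without uveitis, 2 cells with different TCRα: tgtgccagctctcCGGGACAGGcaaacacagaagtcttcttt
TRBV12-1 TRBJ2-7, without uveitis, 1 cell, shortest of TRBV12-1: tgtgccagctcCGGGGGAGGGcagtacttc
TRBV12-2 TRBJ2-7, without uveitis, 1 cell, shortest of TRBV12-2: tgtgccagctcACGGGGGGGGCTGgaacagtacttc
The germline D segments are gggacagggggc for TRBD1 and gggactgggggggc for TRBD2, both rich in G, and a run of at least 4 G lay between V and J in 10 of the 19 chains. The 5-cell chain and the equally long chain shared their V gene, their J segment and the number of bases kept from each, and differed in 6 of the 9 bases between. No other pair of equal length differed at fewer bases. None of the 19 CDR3β sequences was found in more than 1 library or with another V gene.

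In uveitis dataset 1, 5 of 201 cells with a productive TRB used TRBV12, or 2.49% (95% Clopper-Pearson interval, 0.813 to 5.71%). Uveitis dataset 2 had 40 TRBV12 cells among 359, a share of 11.1% (8.08 to 14.9%). The library without uveitis had 18 among 497, a share of 3.62% (2.16 to 5.66%). The interval of dataset 2 did not overlap that of either other library, whereas those of dataset 1 and of the library without uveitis did overlap. These intervals cover counting error only, not the spread between mice. They treat cells as independent, although the 40 cells of dataset 2 carried the same chain. Other V genes varied between the libraries too, such as TRBV31 with 17.8% of cells in dataset 2, 2.49% in dataset 1 and 9.66% without uveitis. How many other V genes would separate in this way was not counted. Averaged over the pools with uveitis, the TRBV12 share was 6.81% ± 6.12 (SD, n = 2 pools). The gap between these pools was 8.65 percentage points, larger than that by which dataset 2 differed from the library without uveitis (7.52 points) and dataset 1 from it (-1.13 points), so that the difference between the conditions was within the spread between the uveitis pools. Combined, the uveitis datasets had 45 TRBV12 cells among 560, or 8.04% (5.92 to 10.6%), and 40 of these 45 cells carried the same chain.

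**Figure D1:**
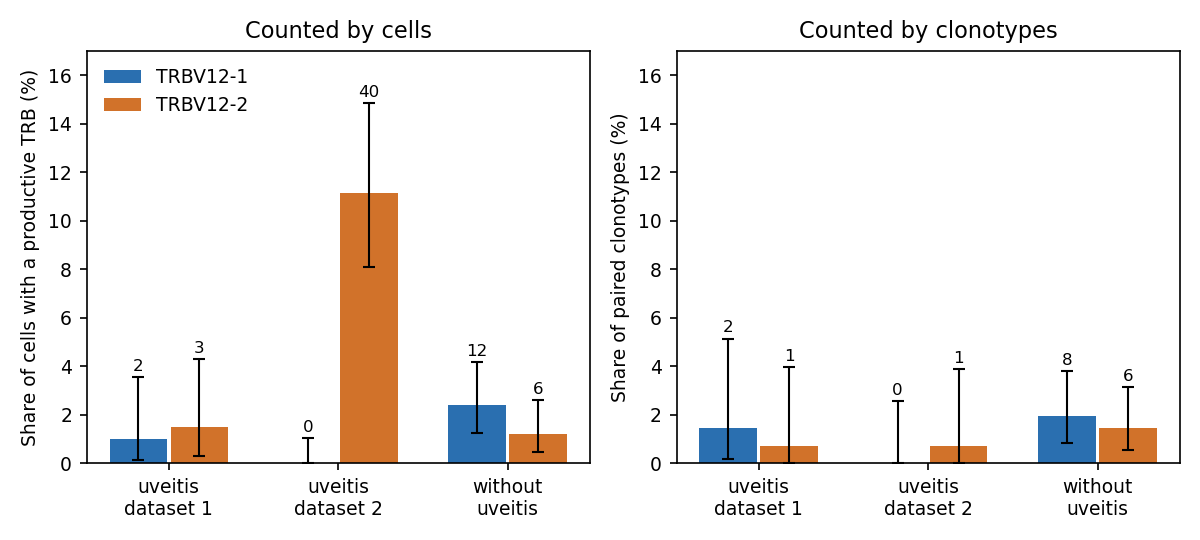
Share of cells with a productive TRB (left, %) and of paired clonotypes (right, %) that used TRBV12-1 or TRBV12-2 in each library. Bars are the shares, error bars the 95% Clopper-Pearson intervals, and numbers the cells or clonotypes; only the TRBV12-2 bar of dataset 2 by cells stands high, at 40 cells, and it is 1 clonotype on the right.

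Counted by clonotypes, where cells whose TCRα and TCRβ matched in V, in J and in every CDR3 base made 1 clonotype, dataset 2 was the lowest of the 3 libraries. TRBV12 made up 3 of 138 clonotypes in dataset 1, or 2.17% (0.451 to 6.22%). It made up 1 of 142 in dataset 2, or 0.704% (0.0178 to 3.86%), and 14 of 411 without uveitis, or 3.41% (1.87 to 5.65%). All 3 of these intervals overlapped. Counted by distinct TCRβ chains, so that cells without a TCRα were included, TRBV12 made up 5 of 118 chains in dataset 1, or 4.24% (1.39 to 9.61%), 1 of 135 in dataset 2, or 0.741% (0.0188 to 4.06%), and 13 of 412 without uveitis, or 3.16% (1.69 to 5.34%). Dataset 1 thus lay below the library without uveitis by clonotypes and above it by chains, and in both counts their intervals overlapped. The mean share of clonotypes over the uveitis datasets was 1.44% ± 1.04 (SD, n = 2 pools). Among the V genes ordered by cells, TRBV12-2 was tied with TRBV20 for the second place of 17 in dataset 2, behind TRBV31. Each cell counted once, under TRBV12 where it had such a contig. The 27 cells with a TRBV4 chain beside TRBV12-2 thus did not count among the 35 cells of TRBV4. By the TRB with the most UMIs, TRBV12-2 had 37 cells, fewer than the 40 of TRBV20, so that the tie rested on this rule. The 3 cells with more UMIs of TRBV4 then added to the 35 cells of TRBV4, which also came before TRBV12-2. Ordered by clonotypes, TRBV12-2 took the place 15 of 17 in dataset 2, tied with 2 other genes.

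Dataset 1 had 2 cells with TRBV12-1, or 0.995% of its cells, and 3 with TRBV12-2, or 1.49%. Dataset 2 had 40 cells with TRBV12-2 and 0 with TRBV12-1, and 0 of 359 cells allows a share of up to 0.836%. Without uveitis, 12 cells used TRBV12-1, or 2.41% (1.25 to 4.18%), and 6 used TRBV12-2, or 1.21% (0.444 to 2.61%). By clonotypes, this last library had 8 with TRBV12-1 and 6 with TRBV12-2, which are 1.95% (0.844 to 3.80%) and 1.46% (0.538 to 3.15%) of its 411. The intervals of the 2 genes overlapped in both counts.

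In dataset 2, each of the 40 TRBV12-2 cells carried the same CDR3β nucleotide sequence, joined to TRBJ2-3 and 18 residues long. A productive TCRα was found in 37 of them, and it was TRAV9-1 joined to TRAJ31 with 1 CDR3α nucleotide sequence in all 37. This clonotype took 37 of the 324 cells with both chains, or 11.4% (8.17 to 15.4%). The largest clonotype with another V gene in dataset 2 also had 37 cells. Where each cell was given only its TCRβ with the most UMIs, 34 cells were left in the TRBV12-2 clonotype. Its CDR3α, 39 bases long, is shown because it recurred with other TCRβ chains.
TRAV9-1 TRAJ31, uveitis dataset 2, 37 cells: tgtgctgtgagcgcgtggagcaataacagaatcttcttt
In 25 further cells of dataset 2 the same CDR3α bases were found without TRBV12, in 17 of them beside TRBV19 and TRBJ1-3 and in 6 beside TRBV4. In 19 of the 25 cells the V gene given to it was TRAV9-4, and in 3 each it was TRAV9-1 and TRAV9D-1. The same bases were found in 2 cells of dataset 1, with TRAV9-4 and a TRBV26 chain, and in 0 cells without uveitis. The sequences of the TRAV9 genes were not compared here, and how the authors' software divided contigs between them could not be examined. No other TCRα of the 18 TRBV12 clonotypes recurred in a cell without TRBV12.

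A further productive TCRβ chain was found in 27 of the 40 TRBV12-2 cells of dataset 2, or 67.5% (50.9 to 81.4%). It was the same chain in all 27, TRBV4 joined to TRBJ2-2 with a CDR3β of 17 residues. TRBV4 lies upstream of TRBV12-1 on the same chromosome, from 41059394 to 41059886. The CDR3β of this chain is shown with the same use of capitals.
TRBV4 TRBJ2-2, uveitis dataset 2, 31 cells: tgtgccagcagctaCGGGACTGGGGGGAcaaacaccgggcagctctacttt
Among the other 319 cells of dataset 2, 5 had more than 1 productive TRB, or 1.57% (0.511 to 3.62%). None of the 5 TRBV12 cells of dataset 1 and none of the 18 without uveitis had one, which allows a share of up to 60% and 16.7%. In cells with other V genes of these libraries the share was 5.61% (2.83 to 9.82%, 11 of 196) and 3.97% (2.40 to 6.13%, 19 of 479). In cells with exactly 1 productive TRB, the TRBV12 share of dataset 2 was 3.98%, 13 of 327 cells. The 40 cells of dataset 2 shared both chains of a clonotype and are not independent observations of how often a cell expresses a further TCRβ.

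In the 27 cells with both TCRβ chains, the TRBV12-2 contig rested on a median of 13 UMIs, the molecule tags that count single transcripts, with a lowest value of 3 and a highest of 57. The TRBV4 contig beside it rested on a median of 6 UMIs, from 2 to 45. TRBV12-2 had more UMIs than TRBV4 in 24 of the 27 cells, and TRBV4 had more in 3. The median ratio of TRBV12-2 to TRBV4 UMIs within a cell was 2.59, with a range from 0.375 to 4.57. Summed over these cells, there were 492 UMIs of TRBV12-2 and 234 of TRBV4.

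**Figure D2:**
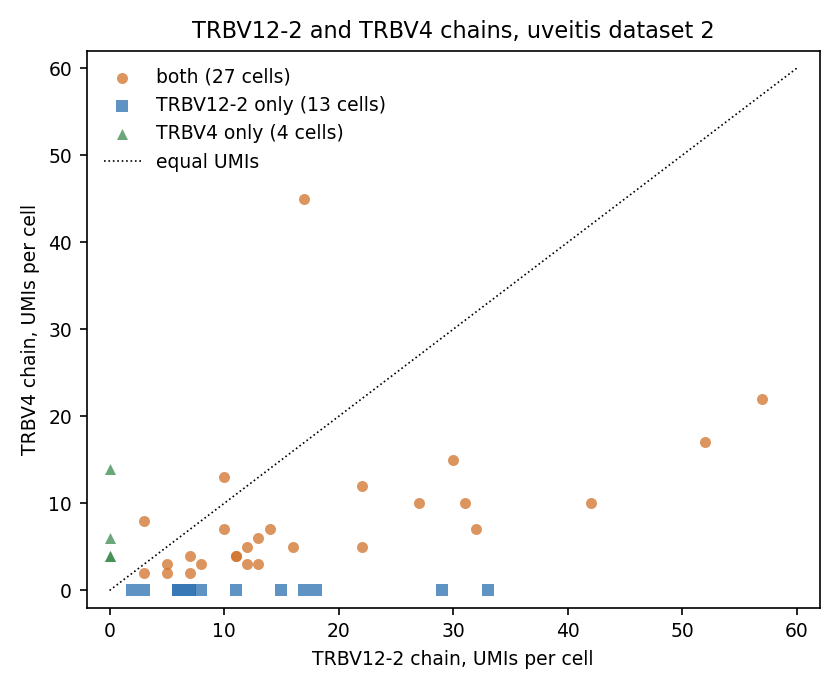
UMIs of the TRBV12-2 chain (x axis) and of the TRBV4 chain (y axis) in each of the 44 cells of dataset 2 with either chain, 1 point per cell, with a chain that was not found drawn at 0 and a dotted line of equal UMIs. Of the 27 cells with both chains, 24 lie under the line, and the 13 cells without TRBV4 spread from 2 to 33 UMIs of TRBV12-2.

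The 13 cells in which only TRBV12-2 was found had a median of 8 UMIs of it, from 2 to 33, a range that overlapped that of the cells with both. At or above the overall median of 12 UMIs, 16 of 21 cells had the TRBV4 chain, and below it 11 of 19 had it. The part that sequencing depth had in finding the TRBV4 chain was not tested. The TCRα rested on a median of 5 UMIs in the cells with TRBV4 and of 3 in those without. All 3 clone cells that lacked a TCRα had the TRBV4 chain. A TRA contig of TRAV6-7-DV9 and TRAJ23, with no CDR3 and not listed as productive, was found in 3 cells of the clone.

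The TRBV4 chain was found in 31 cells of dataset 2 in all, and in 4 of them no TRBV12-2 contig was found. These 4 cells had 4, 4, 6 and 14 UMIs of TRBV4, which lies inside the range of the cells with both chains. Each of the 4 carried a TCRα with TRAV9-1. In 2 it was the CDR3α of the clone, in 1 it was of the same length and differed from it at 1 base, and in 1 it was joined to TRAJ52. Besides these 4 cells, 2 cells given TRAV9D-1 had the CDR3α of the clone beside a TRBV4 TRBJ2-2 chain of 17 residues. The TRBV4 chain was found in no other library.

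In dataset 1, the 5 TRBV12 cells carried 5 different chains, and none of the 3 with a TCRα belonged to an expanded clonotype, a clonotype found in more than 1 cell (0 of 3 cells, 0 to 70.8%). The TRBV12-1 cells had 4 and 10 UMIs of the chain, and both used TRBJ2-5 with CDR3β of 13 residues. One was paired with TRAV14N-1 and TRAJ9 (12 UMIs) and the other with TRAV13D-2 and TRAJ23 (1 UMI). The 3 TRBV12-2 cells had 11, 11 and 21 UMIs and used TRBJ1-1, TRBJ2-7 and TRBJ2-1. Only the TRBJ2-7 cell had a productive TCRα, TRAV6-7-DV9 with TRAJ40 on 5 UMIs. The TRBJ1-1 cell had a TRAV12-2 contig of 5 UMIs and the TRBJ2-1 cell a TRAV9N-2 contig of 1 UMI, neither listed as productive. Of the cells of dataset 1 with other V genes, 23 of 196 lacked a productive TCRα, or 11.7% (7.59 to 17.1%), against these 2 of 5 (5.27 to 85.3%).

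Without uveitis, the 18 TRBV12 cells carried 13 chains, of which 11 were found in 1 cell each. The largest group was the TRBV12-1 chain with TRBJ2-4 and a CDR3β of 15 residues, found in 5 cells with 25, 23, 17, 8 and 5 UMIs. In 4 of the 5 cells it was paired with 1 TCRα, TRAV9-2 joined to TRAJ44, which rested on 4, 2, 5 and 1 UMIs, and the cell with 8 UMIs of the TRBV12-1 chain had no productive TCRα. The CDR3α given to it had 15 bases, or 5 residues, whereas the other TRBV12 clonotypes had 12 to 16 residues. Its last codon was act, whereas the CDR3α of every other TRBV12 clonotype ended in ttt, ttc or tgg. A further TCRα of another TRBV12 cell of this library, TRAV21-DV12 with TRAJ44, had 16 residues. Whether the 15 bases are the whole CDR3α was not tested.
TRAV9-2 TRAJ44, without uveitis, 4 cells: tgtgttttgagtact
Over all 3 libraries, 11 of 1123 productive TRA contigs had a CDR3α of under 8 residues, 9 of them in the library without uveitis, so that 4 of these 9 were from this clonotype. The clonotype took 4 of the 470 cells with both chains, or 0.851% (0.232 to 2.16%).

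All 5 cells with this chain also had a TRB contig with no V gene that ended in TRBJ2-7, with 5 to 24 UMIs. Such a contig can come, for example, from an allele on which no V gene has been joined or from a partly assembled transcript. Its source was not tested. In 2 of the 5 cells, among them the cell without TCRα, an unproductive join of TRBV16 to TRBJ1-2 was found on 2 UMIs each, with the same CDR3 nucleotide sequence, and it was found in no other cell of the library. The cell without a TCRα thus shared a TCRβ chain and an unproductive TRB contig with a cell of the clonotype.

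The other TRBV12 chain in more than 1 cell was TRBV12-1 with TRBJ1-1, 14 residues long, in 2 cells with 55 and 19 UMIs. The cell with 55 UMIs had TRAV12N-1 and TRAJ33 on 19 UMIs, and the cell with 19 UMIs had TRAV5-4 and TRAJ34 on 8 UMIs. The V-less TRB contig beside the chain ended in TRBJ2-7 in the first and in TRBJ2-1 in the other. These 2 cells shared the CDR3β at every base and differed in the TCRα and in the further TRB contig. With 1 TCRα taken per cell, that with the most UMIs, this was the 1 TRBV12 chain of the 19 that was found with more than 1 TCRα. Between the germline bases it kept 9 bases, of which a run of 8 was also in TRBD1.

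V-less TRB contigs were found in 15 of the 18 TRBV12 cells without uveitis, or 83.3% (58.6 to 96.4%), in 1 of 5 in dataset 1 and in 0 of 40 in dataset 2. With other V genes, the shares were 54.9% (50.3 to 59.4%, 263 of 479), 47.4% (40.3 to 54.7%, 93 of 196) and 0.940% (0.194 to 2.72%, 3 of 319) in the same order. Dataset 2 thus had few such contigs whatever the V gene. The 15 cells without uveitis included the 5 cells of 1 chain.

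The 6 TRBV12-2 cells without uveitis carried 6 chains, each in 1 cell, with 97, 72, 35, 12, 10 and 10 UMIs. Each of them had a TCRα, and 3 of the 6 had a further productive TCRα, against 0 of the 12 TRBV12-1 cells. The pairs were TRAV4-4-DV10 on 42 UMIs with TRAV13-1 on 33, TRAV15D-1-DV6D-1 with TRAV12D-2 on 5 each, and TRAV17 with TRAV21-DV12 on 3 each. With equal UMIs, the TCRα of the clonotype was decided by the number of reads. In cells of this library with other V genes, 75 of 479 had more than 1 productive TCRα, or 15.7% (12.5 to 19.2%), and over both TRBV12 genes 3 of 18 did, or 16.7% (3.58 to 41.4%). TRA is known not to be under strict allelic exclusion, so that both alleles of a cell can carry a productive join.

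The share of TRBV12 cells in expanded clonotypes was thus 0 of 3 in dataset 1, 37 of 37 in dataset 2 and 4 of 17 without uveitis (23.5%, 6.81 to 49.9%). The 37 cells of dataset 2 were 1 clonotype, so that their share could only be none or all, and no interval is given for it. In cells with other V genes it was 29.5% (22.8 to 36.9%, 51 of 173), 63.1% (57.2 to 68.7%, 181 of 287) and 16.8% (13.5 to 20.5%, 76 of 453). Expanded TRBV12 clonotypes numbered 0, 1 and 1, against 13, 35 and 20 with other V genes. TRBV12 thus entered the expanded cells of the uveitis libraries through 1 clonotype of 1 pool.

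Of the 19 chains, 14 used the TRBJ2 cluster, or 73.7% (48.8 to 90.9%), and 435 of 646 chains with other V genes did, or 67.3% (63.6 to 70.9%). TRBV12-1 used TRBJ2 in 6 of 9 chains and TRBV12-2 in 8 of 10. TRBJ2-4 and TRBJ2-5 were found in 4 chains each, divided equally between the genes. TRBJ2-7 and TRBJ1-2 were found in 3 chains each, and TRBJ1-3, TRBJ1-4, TRBJ1-5 and TRBJ1-6 in 0. In dataset 1, TRBJ2-5 was in 2 of 5 chains. Without uveitis, TRBJ2-4 was in 4 of 13, or 30.8%, against 33 of 399 chains with other V genes, or 8.27%. With so few chains these shares are given as a description.

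**Figure D3:**
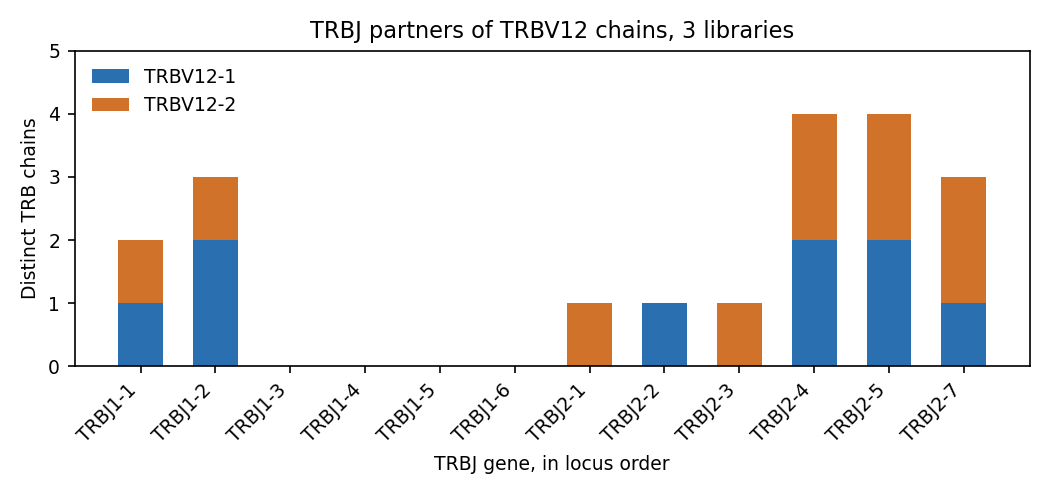
Number of distinct TRB chains (y axis) that joined TRBV12-1 or TRBV12-2 to each TRBJ gene (x axis, in locus order), over the 3 libraries, each chain counted once. Bars for TRBJ2-4 and TRBJ2-5 reach 4 chains and hold 2 of each gene, and no chain used TRBJ1-3 to TRBJ1-6.

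TRBD2 was given as the D segment of 8 chains and TRBD1 of 6, and 5 chains had no D segment given. All 8 chains with TRBD2 used a TRBJ2 segment, and the 5 TRBJ1 chains had TRBD1 in 3 and no D segment in 2. TRBD2 starts at 41542163, downstream of the TRBJ1 cluster, whose last segment ends at 41535687, and a deletional join cannot take it to a TRBJ1 segment. TRBD1 lies upstream of both clusters, at 41533201, and was given as the D segment of 3 TRBJ1 chains and 3 TRBJ2 chains. In 1 of these, TRBV12-1 with TRBJ2-7, the longest run shared with TRBD1 and with TRBD2 was 5 bases each. The match thus did not decide between them. By gene, TRBD2 was given in 6 of 10 TRBV12-2 chains and in 2 of 9 TRBV12-1 chains.

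The median CDR3β length was 14 residues for the 19 TRBV12 chains (range 10 to 18) and 14 for the 646 others (range 9 to 18). The mean was 13.8 ± 1.58 residues (SD, n = 19 chains) against 13.8 ± 1.49 (SD, n = 646 chains). TRBV12-1 chains had 10 to 15 residues and TRBV12-2 chains 12 to 18, both with a median of 14. The 18 residues of the dataset 2 clone stood apart from the next longest TRBV12 CDR3β, with 15. Only 2 of the 646 other chains were as long, 1 of them among the 134 others of dataset 2. Leaving the clone out, the longest CDR3β of both genes was thus of 15 residues.

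**Figure D4:**
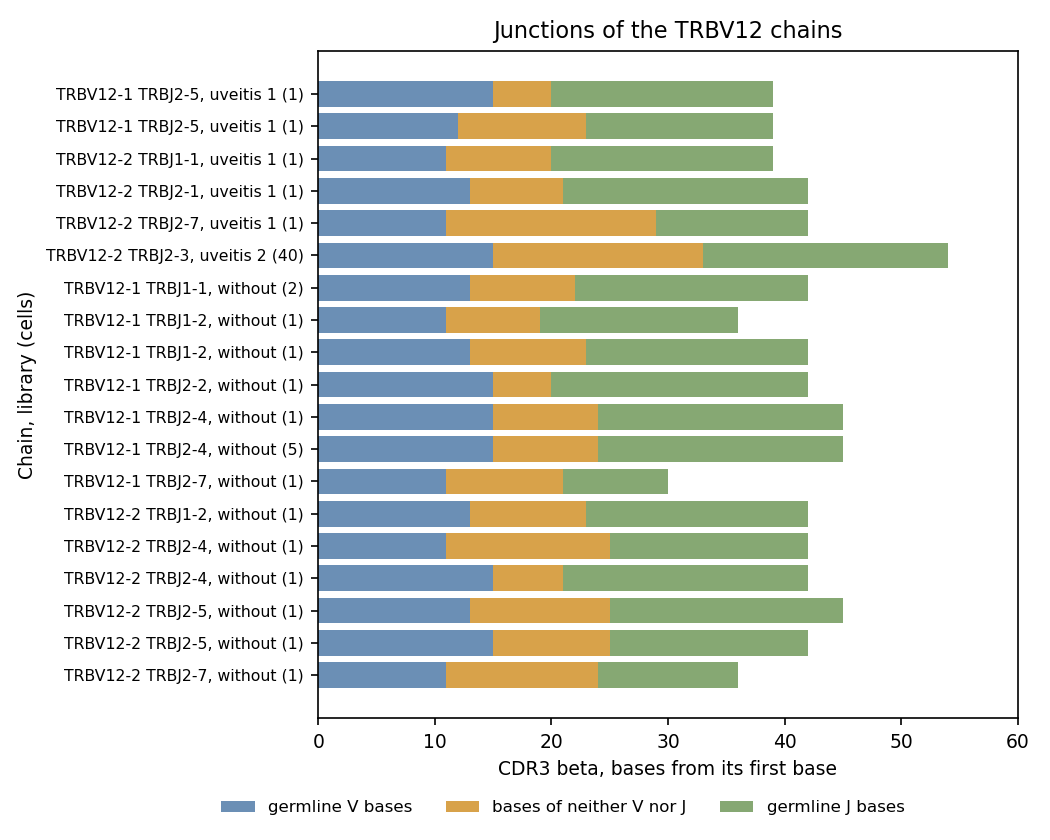
Bases of the CDR3β of each of the 19 TRBV12 chains (x axis), divided into germline V bases, bases of neither germline segment and germline J bases, with the number of cells in parentheses. The chain of the 40 cells is the longest bar, with 15 V bases, 18 bases between and all 21 J bases.

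The long CDR3β of the clone kept all 15 germline V bases and all 21 bases of TRBJ2-3, and had 18 bases between. That middle part was matched in length by 1 other TRBV12 chain, TRBV12-2 with TRBJ2-7 in dataset 1, whose CDR3β had 14 residues because it kept 11 V bases and 13 J bases. Over the 19 chains, the middle part ran from 5 to 18 bases with a median of 10, and in 629 chains of other V genes with a germline sequence from 0 to 22 with a median of 10. The shortest chain, TRBV12-1 with TRBJ2-7, had a middle part of 10 bases beside 11 V and 9 J bases. All 15 germline V bases were kept in 7 chains, and 13 in 5, 12 in 1 and 11 in 6. Between V and J, 57.2% of the 194 bases were G and 7.22% were T, against 54.1% and 10.8% in the other chains. In the clone, a run of 10 bases was also in TRBD2.

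The 18 TRBV12 clonotypes used 15 TRAV genes of 10 families and 15 TRAJ genes. TRAV4 was the family with the most, in 4 clonotypes, all without uveitis, and TRAV6 and TRAV9 had 3 each. TRAJ26, TRAJ33 and TRAJ37 were each used by 2 clonotypes and the other 12 genes by 1. In dataset 1, each of the 3 clonotypes had its own family (TRAV6, TRAV13 and TRAV14). TRAV9 was paired with TRBV12 in dataset 2 (TRAV9-1) and, in the library without uveitis, in the 4-cell clonotype (TRAV9-2) and in 1 cell with TRAV9-1 and TRAJ16. No TRBV12 cell carried the TCRα of invariant NKT cells (TRAV11 with TRAJ18) or of MAIT cells (TRAV1 with TRAJ33), nor a productive TRG or TRD contig.

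TRBV12 contigs rested on a median of 11 UMIs in dataset 1, from 4 to 21. The median was 12 in dataset 2, from 2 to 57, and 16.5 in the library without uveitis, from 4 to 97. The medians of other TRB contigs were 11, 10 and 16. No TRBV12 contig rested on 1 UMI, and with other V genes 2 of 196, 5 of 319 and 11 of 479 cells had such a contig. The TCRα of TRBV12 cells had lower medians, of 5, 4 and 10 UMIs, and so did that of cells with other V genes, of 5, 5 and 7.

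**Figure D5:**
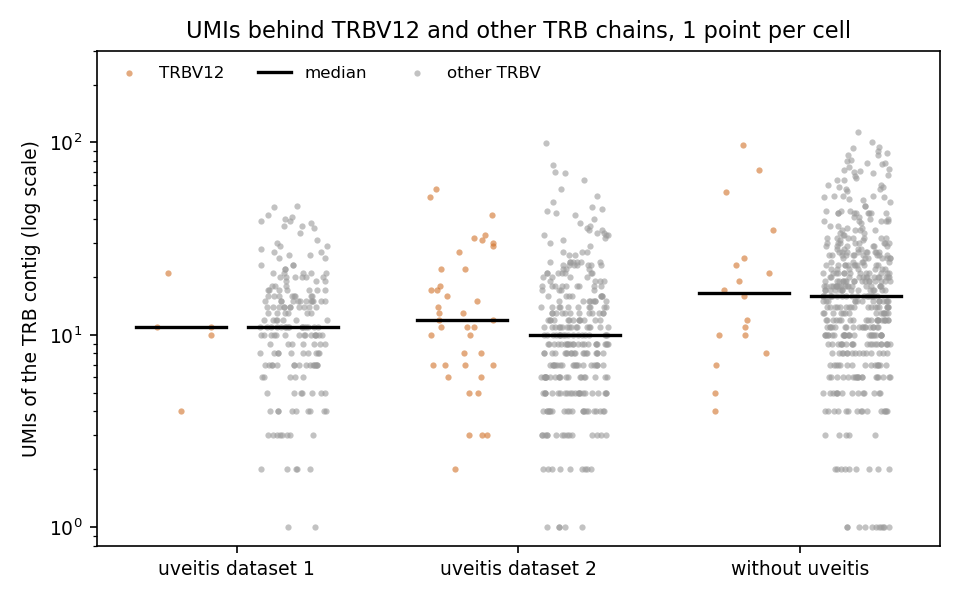
UMIs of the TRB contig of each cell (y axis, log scale) for TRBV12 and for other V genes in the 3 libraries, with black lines at the medians. The TRBV12 medians of 11, 12 and 16.5 lie next to those of the other chains, 11, 10 and 16.

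The libraries held 212, 365 and 512 cell barcodes and 5302, 7439 and 21408 UMIs over all contigs, in the order dataset 1, dataset 2 and without uveitis. Of the barcodes, 1 was found in more than 1 library, and it carried no TRBV12 chain. Every one of the 1119 productive TRB contigs was given TRBC1 as its C gene, also those with a TRBJ2 segment, which is normally spliced to TRBC2, so that the C gene of the TRBV12 chains is not described. Besides the productive chains, TRBV12 was found in 1, 1 and 2 contigs that were not listed as a productive TRB, on 2 to 5 UMIs each.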

How the data were processed

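Single-cell TCR libraries were made by the authors with the 10x 5′ kit from P2+CD4+ T cells, and Cell Ranger version 3 was run with a GRCm38 VDJ reference. The deposited tables list assembled contigs with V, D, J and C genes, CDR3 sequences and the counts of reads and UMIs, not normalized. The 3 mRNA samples were not used here.

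Productive TRB contigs with a V gene starting TRBV12- were taken from the 3 tables. A cell with such a contig counted as a TRBV12 cell also where another TRB had more UMIs. The TCRα was the productive TRA with the most UMIs, then the most reads. Droplets with more than 1 cell were not removed. The members and lists were chosen with earlier results of these data known. Chains were named by rule: both genes, every clonotype of more than 1 cell, every CDR3β with more than 1 TCRα or in more than 1 library, the leading TRBJ gene and TRAV family of each library, and the shortest and longest CDR3β of each gene. Rows beside these were named after their values were seen.

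Germline bases and coordinates came from GENCODE M21 of GRCm38. The germline V match ended at its first mismatch, and later V bases fell in the middle part. Shares have exact Clopper-Pearson intervals, and 3 counts set the upper limit beside a count of 0. When tested on simulated contigs, 15 of 15 values were recovered. Intervals came from scipy 1.17.1 and tables from pandas 2.3.3 in Python 3.11.15, with figures from matplotlib 3.10.9.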

Additional observations from a re-analysis of the deposited data

How the results depend on the processing

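The alternatives gave 126 values for 20 results, and 119 stayed within the counting interval of the reported value, or within 1 SD for a median length. In dataset 2, the TRBV12 share of cells was 3.98% among cells with exactly 1 productive TRB and 4.83% among cells with 1 TRA and 1 TRB, since 27 of the 40 cells carry the TRBV4 chain. Without the largest TRBV12 clonotype, the TRBV12 shares of cells and of clonotypes in dataset 2 were both 0%, and the expanded share of TRBV12 cells without uveitis was 0%. No expanded share could be computed for dataset 2 without that clonotype, since no cell was left. The combined uveitis share of cells ran from 2.49% without dataset 2 to 11.1% without dataset 1, and the share of clonotypes from 0.704% without dataset 1 to 2.17% without dataset 2. Clonotypes defined by CDR3 nucleotides alone, by V genes and CDR3 amino acids or by the TRB alone, and a minimum of 2 UMIs per contig, left every result within its interval. By the TRB alone, the TRBV12 share was 4.24% in dataset 1 and 3.16% without uveitis, the reverse of their order by paired clonotypes. No paired analysis was possible because the results come from no test. With 3 TRBV12 cells of both chains in dataset 1, the expanded share there had an interval of 0 to 70.8%, and dataset 2 gave only 1 clonotype of the family.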
